A study of Mus musculus with 70 samples.

Results

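The insulin-like growth factor (IGF) axis was followed in RENCA cells, a mouse renal adenocarcinoma line, while the cells were passaged in mice. It comprised 10 genes: the ligands Igf1 and Igf2, the receptors Igf1r and Igf2r, and the binding proteins Igfbp2 to Igfbp7. Members were taken by gene name or transcript accession among the non-control probes of the array, and all 10 had at least 1 probe, which gave 14 of 55681 probes and 10 of the 21159 genes that could be named. Igf1 had 4 probes, Igfbp2 had 2 and each of the others had 1. The probe with the highest mean level over all arrays represented each gene.

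All cells carried a lentiviral GFP and were grown in 6-week-old female BALB/c mice, so every passaged group shares that strain, sex and starting age. P0 denotes the GFP-RENCA cells before any passage in mice (n = 2 RNA samples). In the KPT route, cells were placed under the kidney capsule and taken back from the tumour of that kidney (n = 5, 2, 2, 3, 5 and 5 at P1 to P6). In the T-LM route, cells went into the tail vein and came back from lung metastases (n = 5, 2, 3, 4, 6 and 4). In the K-LM route, cells went into the kidney and came back from the lungs (n = 1, 1, 5, 3, 4 and 3). Each passage began from cells recovered at the one before, and the study's methods describe about 2 weeks of culture until GFP-negative cells were no longer seen, whereas the labels describe homogenised samples. Whether the replicate numbers stand for separate mice is not stated for these arrays, so the p-values measure the spread between these samples. A single T-LM P1 sample, given here as replicate 1, has no route or number in its title and was placed by its other labels.

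Across the 70 arrays, which hold 65 RNA samples because 5 RNAs were hybridised again, 25.2% to 55.2% of the probes were well above background. Krt8, Krt18 and Pax8 were above background in all P0 and P6 samples and Pax2 in none of them, and Epcam and Cdh1 were above background at P6 only in T-LM (2 and 4 of 4 samples). Of the 8 renal epithelial markers listed, Krt19 and Cdh16 are not described here. By the test given below, 2 of 5, 2 of 6 and 1 of 5 tested rose between P0 and P6 in KPT, T-LM and K-LM, beside 3.80%, 7.24% and 4.82% of all probes called. Of 10 fibroblast and stromal marker genes, none was above background at P0 and between 1 and 9 were in the passaged samples. Their summed level ranged from -4.70 to -4.60 at P0, -1.02 to 0.18 at KPT P6, 0.99 to 2.76 at T-LM P6 and -0.04 to 1.58 at K-LM P6 (log2). Of 6 lung epithelial markers, 3 to 5 were above background at T-LM P6 and 1 at KPT P6 and K-LM P6. Fewer cells of a type and less RNA per cell cannot be told apart in these bulk samples. All 3 K-LM P6 arrays and the 5 repeat arrays lay on 1 slide that was read with another software version on another day, called the late slide below.

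IGF1 and IGF2 are secreted peptides that signal through the IGF1 receptor, a tyrosine kinase shared in part with insulin. The IGF2 receptor, also the mannose 6-phosphate receptor, carries lysosomal enzymes and removes IGF2 from the cell surface without a kinase of its own. The binding proteins hold IGFs in the extracellular space, where proteases such as pregnancy-associated plasma protein A release them, and they are cut or secreted differently between tissues. In the kidney and in renal tumours this axis is known for its part in growth.

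The upstream sequence of the 4 members that passed the test between P0 and P6 is shown as a description. Its part in their levels was not tested. Each run covers the 250 bases before an annotated transcript start in RefSeq, build GRCm38.p6, in the direction of transcription, and capitals mark a match, on either strand, to the TATA box (TATAAA), the CCAAT box (CCAAT) or the GC box (GGGCGG).
Igf1, chr10:87860861-87861110, plus strand: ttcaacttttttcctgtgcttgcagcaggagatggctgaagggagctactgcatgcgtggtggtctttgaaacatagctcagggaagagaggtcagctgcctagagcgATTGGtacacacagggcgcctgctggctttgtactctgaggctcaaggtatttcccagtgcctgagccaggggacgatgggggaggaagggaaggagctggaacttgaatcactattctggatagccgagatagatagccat
Igfbp4, chr11:99040994-99041243, plus strand: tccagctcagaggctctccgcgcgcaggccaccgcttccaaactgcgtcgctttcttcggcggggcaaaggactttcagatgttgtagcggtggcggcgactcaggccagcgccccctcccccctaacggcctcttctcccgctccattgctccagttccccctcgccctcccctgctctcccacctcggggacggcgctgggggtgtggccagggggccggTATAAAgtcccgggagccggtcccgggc
Igfbp5, chr1:72874866-72875115, minus strand: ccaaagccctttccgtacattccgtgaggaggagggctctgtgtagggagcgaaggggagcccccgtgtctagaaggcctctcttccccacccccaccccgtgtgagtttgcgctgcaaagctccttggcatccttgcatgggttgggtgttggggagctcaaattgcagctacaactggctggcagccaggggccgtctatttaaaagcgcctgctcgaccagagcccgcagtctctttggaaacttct
Igfbp6, chr15:102143936-102144185, plus strand: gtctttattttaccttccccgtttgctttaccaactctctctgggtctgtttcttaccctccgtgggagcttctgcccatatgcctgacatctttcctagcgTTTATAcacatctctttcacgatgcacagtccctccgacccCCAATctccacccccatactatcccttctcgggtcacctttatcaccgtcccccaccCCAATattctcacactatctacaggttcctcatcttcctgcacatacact
The Igfbp4 window holds TATAAA starting 28 bases before the start site, and the Igfbp6 window holds CCAAT at 107 and 50 bases and TATAAA on the opposite strand at 148 bases. The Igf1 window holds CCAAT on the opposite strand at 142 bases, and none of the 3 motifs is written in the Igfbp5 window. Of 32851 windows of the same length, 12.4% hold TATAAA, 33.8% hold CCAAT and 32.7% hold GGGCGG. CpG pairs numbered 22 in the Igfbp4 window, 10 in Igfbp5, 7 in Igfbp6 and 5 in Igf1, against a median of 6 over all windows. These matches describe sequence and are not shown to be bound.

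Between P0 and P6 the ligand Igf1 fell in K-LM, the binding protein Igfbp4 rose in KPT and T-LM, Igfbp5 rose in T-LM, and Igfbp6 rose slightly in K-LM. Levels are log2 of the processed signal relative to the 75th percentile of each array, and a change was called at an adjusted p of 0.01 or less (limma, Benjamini-Hochberg over all probes tested). In KPT, 1 of 6 members tested was called, against 3.80% of 20978 probes. In T-LM, 2 of 8 were called, against 7.24% of 21381 probes, and in K-LM 2 of 8, against 4.82% of 22323 probes. The median change of the members tested was 0.14, 0.34 and 0.72 in KPT, T-LM and K-LM, beside -0.02, 0.01 and 0.02 over all probes tested. The 3 comparisons share the P0 samples.

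**Figure D1:**
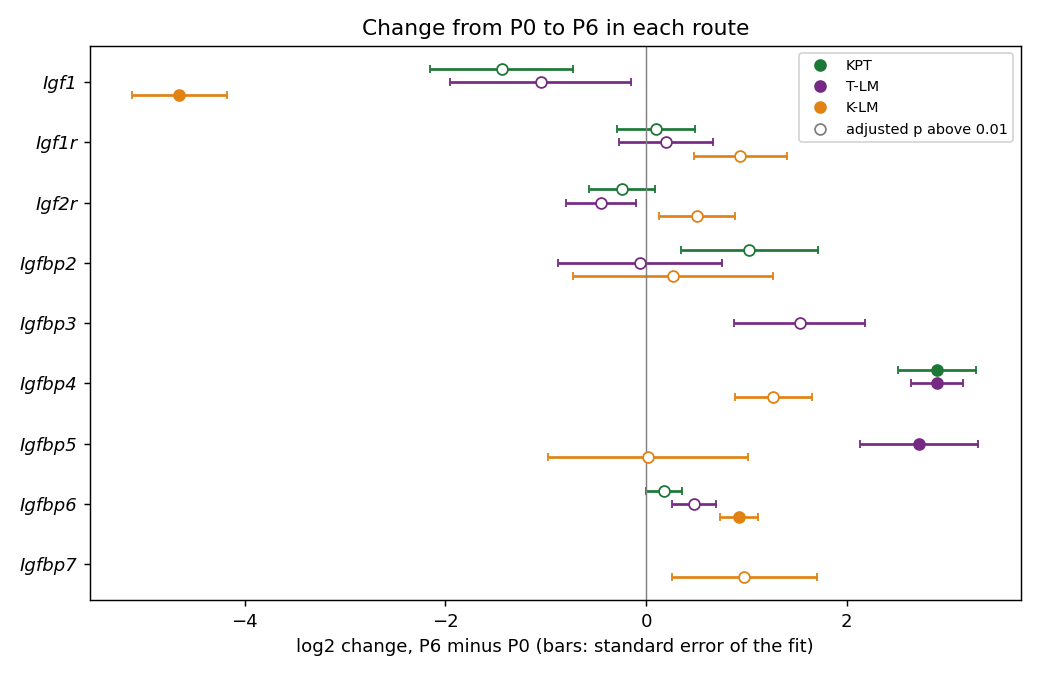
Fitted log2 change from P0 to P6 for each member tested (rows) in KPT, T-LM and K-LM, with bars of 1 standard error. Filled points passed an adjusted p of 0.01: Igf1 (-4.65) and Igfbp6 (0.93) in K-LM, Igfbp4 in KPT and T-LM (2.90 in each) and Igfbp5 in T-LM (2.72).

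Igf1 stood at -2.91 and -4.07 in the 2 P0 samples and at -8.58, -7.82 and -8.02 in the 3 K-LM P6 samples. The groups did not overlap, and the 3 K-LM P6 samples were not above background. The fitted change was -4.65 ± 0.47 (SE, limma, adjusted p = 5.05e-07), and set against the faintest signal that still passed on the arrays of K-LM P6 the level was at least 13.6-fold lower. With every signal under a floor of -5.24 raised to it, above background or not, the change was -1.75 and still called (adjusted p = 0.00385). KPT P6 ranged from -5.01 to -4.84 over 5 samples (mean -4.93 ± 0.07, SD), and T-LM P6 read -4.22, -3.77, -5.10 and -5.10. Both routes lay below the mean of P0, and all 5 KPT P6 samples lay below both P0 samples. Neither change was called (-1.44 ± 0.71 with adjusted p = 0.302 in KPT, and -1.05 ± 0.90 with adjusted p = 0.577 in T-LM, SE). With arrays of the compared groups alone the KPT change was called (-1.44, adjusted p = 0.00562) and the T-LM change was not (-1.05, 0.157). On the late slide alone the KPT change was not called (-1.45, adjusted p = 0.0175). A second Igf1 probe that followed the first with r = 0.99 over 65 RNA samples fell by 4.99 on the log2 scale in K-LM (adjusted p = 1.2e-07). Another (r = 0.77) was above background on 5 of 70 arrays only, 1 P0 sample and no K-LM P6 sample among them, and the remaining Igf1 probe on 0 arrays, so neither is read further.

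The level of Igf1 was no steady function of passage. In KPT it averaged -4.91 at P1, -6.46 at P3, where neither of 2 samples was above background, and -4.03 ± 1.5 (SD) at P5. In T-LM it averaged -6.37 at P3, -4.25 at P4 and -6.45 ± 1.8 at P5, and the P5 samples held 1 that stood apart: replicate 1 read -2.83 while the other 5 lay between -7.72 and -6.42. In K-LM the mean was -6.86 at P3, -4.99 at P4, -5.63 at P5 and -8.14 at P6. The test over all passages was called for Igf1 in K-LM (adjusted p = 6.96e-06) and not in KPT (0.0574) or T-LM (0.0248). Between P3 and P6 no route gave a call for Igf1, with changes in KPT, T-LM and K-LM of 1.53 ± 0.71, 1.82 ± 0.79 and -1.28 ± 0.43 (SE, adjusted p = 0.214, 0.14 and 0.0495). With arrays of the compared groups alone the KPT change was called (adjusted p = 0.00082), and those in T-LM and K-LM were not (0.0131 and 0.0163). On the late slide alone, which held P0, KPT P6 and K-LM P6 arrays, Igf1 was lower at K-LM P6 than at P0 by -4.66 (adjusted p = 2.11e-05). Igf1 on the repeat arrays differed from the first arrays of the same RNA by -0.23 to 0.17. These RNAs were P0 and KPT P6, where Igf1 read -5.06 to -2.90. The repeats therefore do not cover the dim level of Igf1 at K-LM P6. Among dim members, the median repeat difference was -0.77 for Igf2, -0.72 for Igfbp2, -0.87 for Igfbp3, -0.41 for Igfbp5 and 0.28 for Igfbp7.

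Igf2 was not above background on any of the 70 arrays, from -9.46 to -7.30, and was not tested. This imprinted ligand of fetal growth is therefore described only as not well above background.

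**Figure D2:**
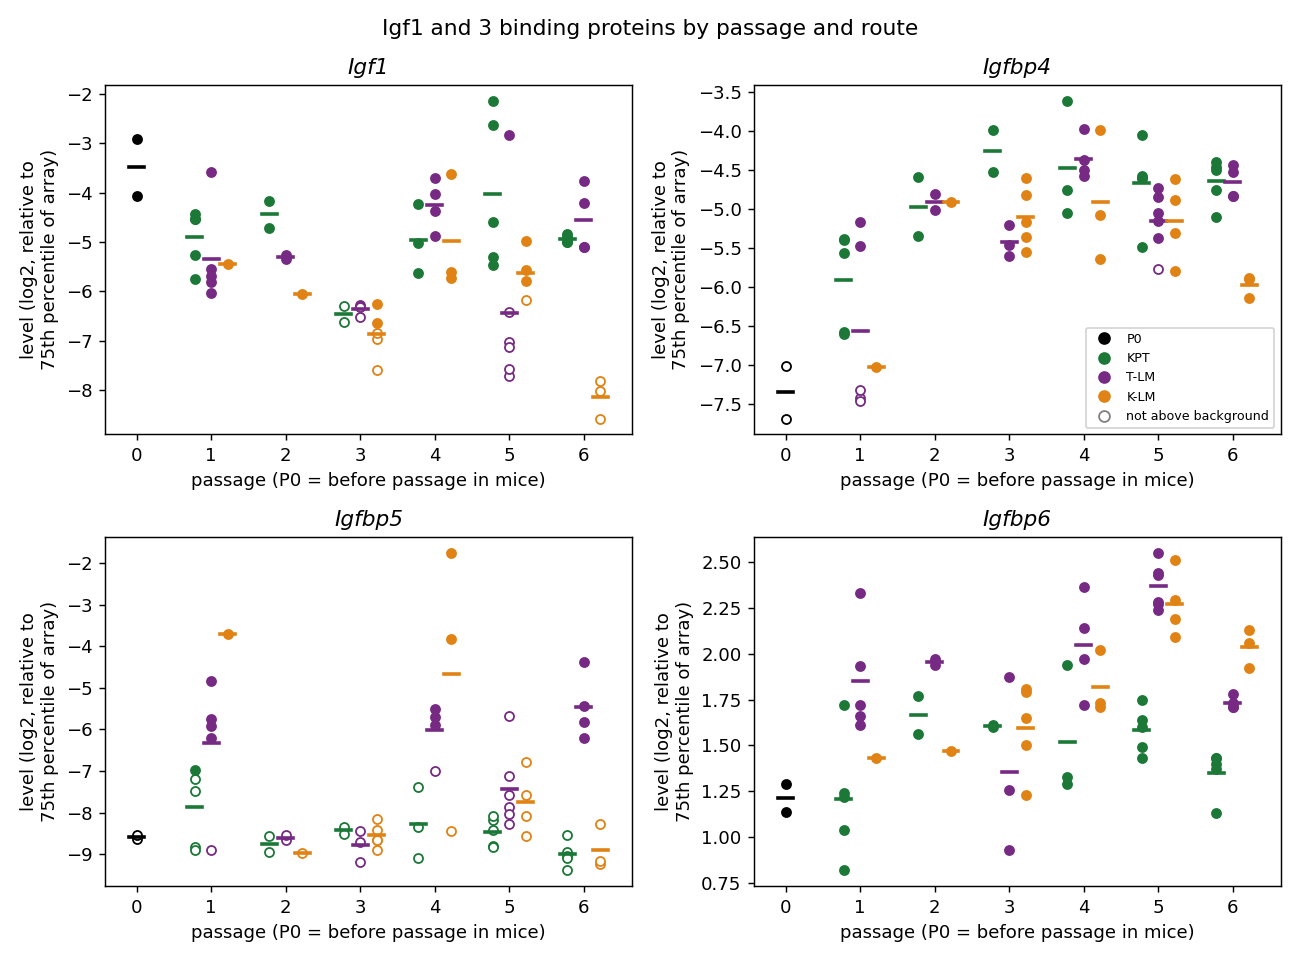
Level (log2, relative to the 75th percentile of the array) of Igf1, Igfbp4, Igfbp5 and Igfbp6 by passage, with 1 point per RNA sample, a bar at each group mean, and open points for samples not above background on all their arrays. Igf1 lay lowest in the 3 K-LM P6 samples, and Igfbp4 lay higher at P6 than in both P0 samples in every route.

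Igfbp4, a binding protein that holds IGFs away from the receptor and is cut by pregnancy-associated plasma protein A, read -7.01 and -7.69 at P0. There 1 of 4 arrays was above background. The 5 KPT P6 samples lay between -5.10 and -4.39 and the 4 T-LM P6 samples between -4.83 and -4.44, all above background. The change was 2.90 ± 0.39 in KPT (adjusted p = 9.61e-05) and 2.90 ± 0.26 in T-LM (adjusted p = 2.1e-07). K-LM P6 read -5.90, -5.89 and -6.14, above both P0 samples, but the change of 1.27 ± 0.38 was not called (adjusted p = 0.0417). On the late slide alone it was called in K-LM as well (1.17, adjusted p = 0.00631).

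Every KPT sample from P1 on had more Igfbp4 signal than both P0 samples. The KPT means were -5.91 at P1, -4.97 at P2, -4.25 at P3, -4.47 at P4, -4.66 at P5 and -4.64 at P6. In T-LM the P1 samples were split, with -5.17 and -5.47 in replicates 1 and 2 and -7.42, -7.32 and -7.46 in replicates 3, 4 and 5. From P2 on, the T-LM means lay between -5.42 and -4.35. The single K-LM P1 sample read -7.03 and the K-LM P2 sample -4.91, after which the means were -5.10, -4.90, -5.15 and -5.98 at P3 to P6. Igfbp4 was called over all passages in KPT (adjusted p = 0.00015), T-LM (9.44e-05) and K-LM (0.000168), where 24.4%, 27.8% and 19.2% of all probes tested were called. The floor lies above both P0 levels and above every K-LM P6 level. Under it the P0 to P6 change shrank to 0.58 in KPT and in T-LM and was no longer called (adjusted p = 0.588 and 0.0473). In K-LM it stood at -0.02 (adjusted p = 1), which cannot show a difference because both groups lie under the floor. Under that floor the test over all passages was called in T-LM (adjusted p = 0.000122) and not in KPT (0.106) or K-LM (0.814).

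Igfbp5, a matrix-bound binding protein, was below background in both P0 samples (-8.64 and -8.55) and in all 5 KPT P6 samples (-9.39 to -8.55). The 4 T-LM P6 samples read -5.82, -5.45, -4.38 and -6.21, all above background and above every P0 and KPT P6 sample. The change in T-LM was 2.72 ± 0.59 (adjusted p = 0.00367), at least 2.63-fold. In K-LM it was 0.02 ± 1.0 (adjusted p = 0.997), with all 3 P6 samples below background. The T-LM call was lost without P0 replicate 1 (2.47, adjusted p = 0.0747), without P0 replicate 2 (2.98, 0.0245), without T-LM P6 replicate 3 (2.36, 0.0119), under the floor (0.21, 0.675), in 1 fit of all samples (2.82, 0.0167) and with the replicate number as a block (2.77, 0.0199). The floor lies above every T-LM P6 level except that of replicate 3, so the value under it cannot show whether the change holds.

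Igfbp5 was above background in 15 of 65 RNA samples. Of these, 11 were T-LM (4 at P1, 3 at P4 and 4 at P6), 3 were K-LM and 1 was KPT. The highest levels were in K-LM P4 replicate 5 (-1.75), K-LM P1 (-3.70) and K-LM P4 replicate 3 (-3.83), while the remaining K-LM P4 sample read -8.45. Igfbp3, the main IGF carrier of serum, was above background in 10 samples, and Igfbp7, which binds IGFs weakly and is found in vessels and matrix, in 6. Igfbp3 was not above background at P0 or at KPT P6 and read -6.28, -6.07, -6.63 and -8.43 at T-LM P6. The change of Igfbp3 in T-LM was 1.53 ± 0.65 (adjusted p = 0.157) and that of Igfbp7 in K-LM 0.98 ± 0.72 (adjusted p = 0.523).

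Igfbp3, Igfbp5 and Igfbp7 were the members whose levels followed the stromal markers most closely. Over the 65 RNA samples, which share arrays and groups, r was 0.57 between Igfbp3 and Igfbp5, 0.65 between Igfbp5 and Igfbp7 and 0.52 between Igfbp3 and Igfbp7. Their r with the summed stromal level was 0.70, 0.66 and 0.65, beside 0.26 for Igf1, 0.45 for Igf1r, -0.10 for Igfbp4 and 0.35 for Igfbp6. The 10 samples with Igfbp3 above background had stromal sums of 1.64 to 4.74, against a median of -0.23 in the other 55 samples. The 15 samples with Igfbp5 above background had sums of -1.30 to 4.25, and the 6 with Igfbp7 had 1.92 to 4.25. Between P0 and P6, 8, 9 and 9 of the 10 stromal markers were tested in KPT, T-LM and K-LM. Of these, 2, 6 and 5 rose, against 3.80%, 7.24% and 4.82% of all probes called. Their median changes were 3.46, 4.59 and 4.97. At P6, 6 of 9 were higher in T-LM than in KPT (11.3% of all probes called). In K-LM, 2 were higher than in KPT (15.3%) and 2 lower than in T-LM (11.7%). Igfbp3 and Igfbp5 were not above background in any K-LM P6 sample. The part of stromal cells in the Igfbp3, Igfbp5 and Igfbp7 levels was not tested.

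Markers of macrophages and other leukocytes moved between the same groups. Of 12 such genes, 5 rose between P0 and P6 in T-LM (median change 1.77), against 7.24% of all probes called. In KPT 0 of 12 and in K-LM 0 of 11 tested were called, with 3 and 1 at an unadjusted p under 0.05 (limma). At P6, 8 were higher and 1 lower in T-LM than in KPT (11.3% of all probes called), 2 were higher and 4 lower in K-LM than in KPT (15.3%), and 8 were lower in K-LM than in T-LM (11.7%). Their summed level ranged from 1.16 to 1.36 at P0, 1.64 to 2.11 at KPT P6, 1.85 to 2.13 at T-LM P6 and 1.34 to 1.87 at K-LM P6 (log2), with 5 to 6, 8 to 10, 9 to 12 and 7 of the 12 above background. Over the 65 RNA samples the r with this sum was 0.41 for Igf1, 0.42 for Igfbp3, 0.17 for Igfbp4 and 0.03 for Igfbp5. The P0 cells, never placed in mice, already had 5 to 6 of these markers above background. The sum therefore does not measure leukocytes alone. The part of macrophages and other leukocytes in the Igf1, Igfbp3 and Igfbp5 differences was not tested. Of the lung epithelial markers, 5 were tested in T-LM between P0 and P6 and 3 rose. At P6, 4 of 5 were higher in T-LM than in KPT and 3 lower in K-LM than in T-LM. In KPT and K-LM only 1 was tested between P0 and P6, so these counts are a description. The r with the lung sum was 0.11 for Igfbp3 and 0.17 for Igfbp5, and the part of lung cells was not tested.

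**Figure D3:**
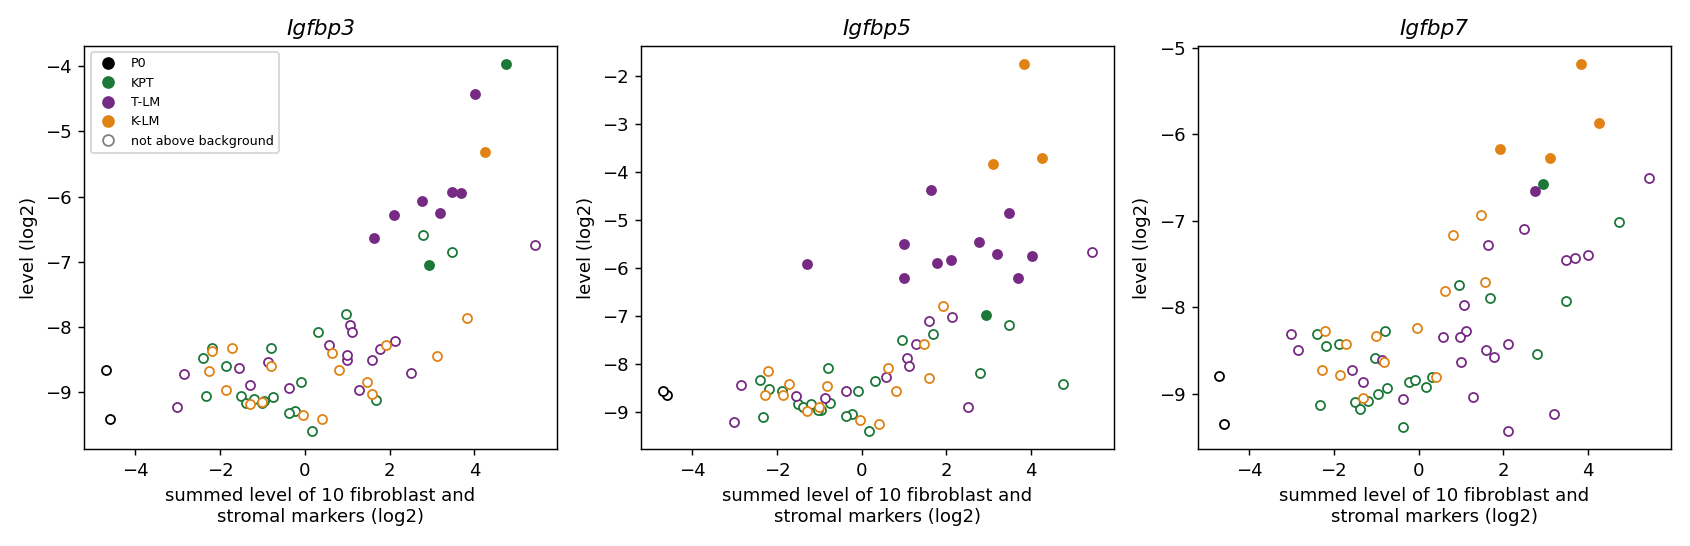
Level of Igfbp3, Igfbp5 and Igfbp7 (log2, vertical) against the summed level of 10 fibroblast and stromal markers (log2, horizontal), 1 point per RNA sample, open where the gene was not above background. Samples with Igfbp3 above background had stromal sums of 1.64 or more and those with Igfbp7 of 1.92 or more, and 1 T-LM P1 sample had Igfbp5 above background at a sum of -1.30.

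Igfbp6, which prefers IGF2 over IGF1, was above background on all 70 arrays. It read 1.14 and 1.29 at P0 and 1.92, 2.13 and 2.06 at K-LM P6, so the groups did not overlap, and the change was 0.93 ± 0.19 (adjusted p = 0.00223). At T-LM P6 the 4 samples lay between 1.71 and 1.78 (change 0.48 ± 0.22, adjusted p = 0.184), and at KPT P6 the 5 samples lay between 1.13 and 1.43 (0.18 ± 0.18, adjusted p = 0.676). The call in K-LM was lost without P0 replicate 1 (0.86, adjusted p = 0.0487), P0 replicate 2 (1.02, 0.0148), K-LM P6 replicate 2 (0.88, 0.0127) or K-LM P6 replicate 3 (0.91, 0.0114), and was made on the late slide alone (0.87, 0.00126). The repeat arrays minus the first arrays of the same RNA gave -0.40 to -0.06, and with first arrays alone the K-LM change was 0.78 and not called (adjusted p = 0.0371).

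Igfbp2, a binding protein common in fetal tissue and tumours, was above background in 12 of 65 samples, of which 4 were KPT, 5 were T-LM and 3 were K-LM. None of its P0 to P6 changes was called (KPT 1.03 ± 0.68, T-LM -0.06 ± 0.82, K-LM 0.27 ± 1.0, SE, adjusted p = 0.476, 0.981 and 0.935). K-LM P3 replicate 3 read -3.80 while the other 4 samples of its group lay between -8.69 and -8.08, and the second Igfbp2 probe followed the first with r = 0.94.

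The receptors Igf1r and Igf2r were above background in 62 and 65 of 65 RNA samples and none of their P0 to P6 changes was called. Igf1r read -3.94 and -3.96 at P0, and its change to P6 in KPT, T-LM and K-LM was 0.10 ± 0.39, 0.20 ± 0.47 and 0.94 ± 0.46 (SE, adjusted p = 0.93, 0.88 and 0.259). Igf2r read -2.23 and -2.03 at P0, and its change was -0.24 ± 0.33, -0.45 ± 0.35 and 0.51 ± 0.38 (adjusted p = 0.786, 0.528 and 0.532). Their windows are shown as a description, with capitals at GGGCGG as above. This motif is in 32.7% of all windows and also in windows of Igf2, Igfbp2 and Igfbp7. Its part in the receptor levels was not tested.
Igf1r, chr7:67952007-67952256, plus strand: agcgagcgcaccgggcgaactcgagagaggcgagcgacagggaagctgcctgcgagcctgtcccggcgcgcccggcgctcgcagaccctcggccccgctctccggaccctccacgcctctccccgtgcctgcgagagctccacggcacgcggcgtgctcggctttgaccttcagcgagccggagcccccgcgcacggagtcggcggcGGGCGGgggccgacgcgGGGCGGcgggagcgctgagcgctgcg
Igf2r, chr17:12769707-12769956, minus strand: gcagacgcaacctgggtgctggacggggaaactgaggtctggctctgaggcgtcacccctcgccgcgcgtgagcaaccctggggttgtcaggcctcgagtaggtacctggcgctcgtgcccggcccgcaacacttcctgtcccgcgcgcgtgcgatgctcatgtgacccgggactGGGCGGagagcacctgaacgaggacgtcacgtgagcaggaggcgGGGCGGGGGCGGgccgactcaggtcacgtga
The Igf1r window has 42 CpG pairs and 2 copies of GGGCGG, and the Igf2r window has 27 CpG pairs and 3 copies, starting 75, 31 and 25 bases before the start site.

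Between those end points both receptors swung by several units. Igf1r averaged -2.75 at KPT P1, -5.13 at P2, -5.72 at P3, -3.15 at P4, -4.12 at P5 and -3.73 at P6. In T-LM the means were -2.70, -4.43, -5.06, -3.98, -4.06 and -3.67, and in K-LM the single samples read -2.73 and -4.68, followed by means of -5.36, -2.62, -4.86 and -3.01. Igf2r gave the same order in K-LM, from -3.49 at P3 to -1.44 at P4, -3.31 at P5 and -1.50 at P6. Over the 65 RNA samples the r between the receptors was 0.88. Both encode long mRNAs, and both followed an index of long mRNAs, the mean level of 14 long mRNAs minus that of 77 ribosomal protein mRNAs, with r = 0.90 for Igf1r and 0.89 for Igf2r. The index averaged -6.02 at KPT P1, -8.32 at P3 and -6.63 at P6, and -8.22 at K-LM P3, -8.48 at P5 and -6.53 at P6.

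Between P3 and P6, Igf1r rose in K-LM by 2.36 ± 0.42 (adjusted p = 0.00135) and Igf2r by 1.75 ± 0.34 (adjusted p = 0.00321), which were the 2 calls among 8 members tested, against 3.53% of all probes. With the index as a covariate these became 1.16 (adjusted p = 0.0362) and 0.79 (0.119). The Igf2r call was also lost without K-LM P6 replicate 1 (1.69, 0.0195), replicate 2 (1.74, 0.017) or replicate 3 (1.82, 0.0111). In KPT, 0 of 6 members were called between P3 and P6, against 0.787% of probes, with 3 at an unadjusted p under 0.05 and Igf1r at 1.96 ± 0.39 (limma, adjusted p = 0.0124). Without KPT P6 replicate 1, Igf1r was called there. In T-LM, 1 of 8 was called, against 7.05% of probes: Igfbp5, at 3.32 ± 0.52 (adjusted p = 0.000241), from -8.78 ± 0.38 (SD, n = 3) to -5.46 ± 0.79 (n = 4), a call lost under the floor (0.21, adjusted p = 0.48).

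**Figure D4:**
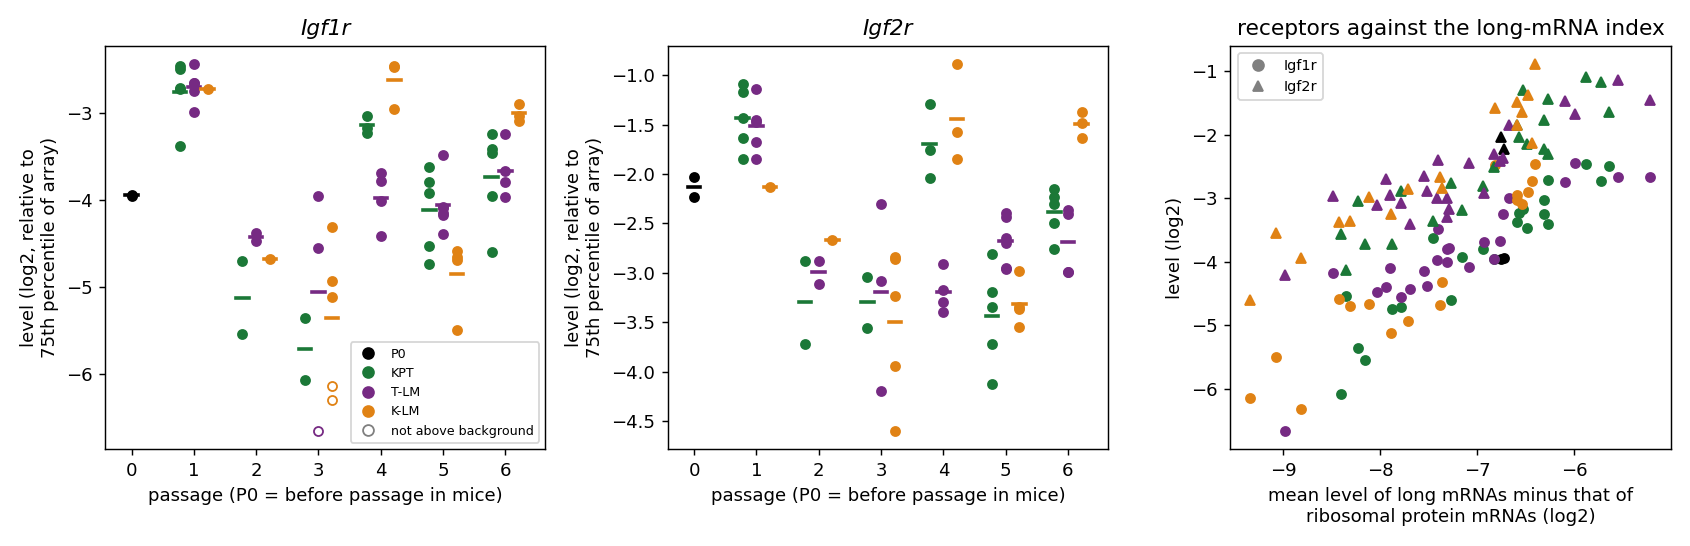
Level (log2) of Igf1r and Igf2r by passage and route, and both against the index of long mRNAs minus ribosomal protein mRNAs (log2), with 1 point per RNA sample and bars at group means. In K-LM, Igf1r averaged -5.36 at P3 and -3.01 at P6, and the r with the index was 0.90 for Igf1r and 0.89 for Igf2r.

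At the first passage no member was called in KPT (0 of 7 tested, against 4.50% of probes) or T-LM (0 of 8, against 2.71%), with 4 and 6 members at an unadjusted p under 0.05 (limma). The largest of these changes in KPT was Igfbp4 at 1.65 ± 0.42 (adjusted p = 0.0149), which was called when KPT P1 replicate 1 or replicate 2 was left out. From P1 to P6, 2 of 7 members were called in KPT (against 11.7% of probes) and 2 of 8 in T-LM (9.08%), and in both routes they were Igf2r, lower at P6, and Igfbp4, higher. Igf2r changed by -1.04 ± 0.24 in KPT (adjusted p = 0.00459) and -1.17 ± 0.26 in T-LM (adjusted p = 0.00335), and with the index as a covariate by -0.52 and -0.42 (0.0804 and 0.119). Igfbp4 changed by 1.25 ± 0.32 in KPT (adjusted p = 0.00779) and 1.91 ± 0.38 in T-LM (adjusted p = 0.00109). Neither KPT call was made without KPT P1 replicate 1 (Igf2r -0.95, Igfbp4 1.08), KPT P1 replicate 2 (-0.97 and 1.07), KPT P6 replicate 1 (-0.94 and 1.18) or KPT P6 replicate 2 (-0.96 and 1.23). Without KPT P1 replicate 4 the Igf2r call was lost (-1.03, adjusted p = 0.0105), and without KPT P6 replicate 3 (1.18, 0.0216) or replicate 4 (1.29, 0.0119) the Igfbp4 call. In T-LM the Igf2r call was lost without T-LM P6 replicate 1 (-1.07, 0.017) or replicate 4 (-1.07, 0.0176).

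The routes differed at P6 in all 4 of the members called above, and in Igf2r and Igfbp3. The fit at P6 took P0 and the 3 routes, and allowed for the late slide and for arrays that share an RNA. Between T-LM and KPT, 2 of 8 members were called, against 11.3% of 22072 probes. Both, Igfbp3 and Igfbp5, passed the background filter of this fit only through T-LM P6 arrays. They were tested because they were high there, so their calls against T-LM are a description. Between K-LM and KPT, 4 of 8 were called, against 15.3%, and between K-LM and T-LM 4 of 8, against 11.7%. These comparisons share samples in pairs.

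Igf1 was lower in K-LM than in KPT by -3.21 ± 0.31 (adjusted p = 1.22e-06, at least 5.02-fold) and lower than in T-LM by -3.60 ± 0.37 (adjusted p = 2.56e-06, at least 6.55-fold). No K-LM P6 sample overlapped a sample of the other routes. Igfbp4 was lower in K-LM than in KPT by -1.49 ± 0.21 (adjusted p = 4.84e-05) and than in T-LM by -1.54 ± 0.24 (adjusted p = 0.000212), again without overlap. Igfbp5 was higher in T-LM than in KPT by 3.36 ± 0.29 (adjusted p = 2.34e-07, at least 3.09-fold) and lower in K-LM than in T-LM by -2.81 ± 0.40 (adjusted p = 8.6e-05, at least 3.47-fold). Igfbp3 was higher in T-LM than in KPT by 2.11 ± 0.35 (adjusted p = 0.000265, at least 1.18-fold), with 3 of 4 T-LM samples above background. The floor also replaces signals above background that lie under it. It lies above every Igfbp3 T-LM P6 level, every Igfbp4 K-LM P6 level and every Igfbp5 T-LM P6 level except replicate 3. The values under it therefore depend on where it sits and cannot show whether the differences hold. Under the floor all of these differences shrank. Igfbp4 against KPT was still called (-0.65, adjusted p = 0.0081), and the others lost their calls: Igf1 to -0.31 against KPT and -0.69 against T-LM (adjusted p = 0.683 and 0.264), Igfbp5 to 0.21 and -0.21 (0.402 and 0.551), Igfbp3 to 0.00 (1), and Igfbp4 against T-LM to -0.64 (0.0257).

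Igfbp6 was higher in K-LM than in KPT by 0.79 ± 0.12 (adjusted p = 8.63e-05), and the difference from T-LM, 0.47 ± 0.13, was not called (adjusted p = 0.0176). Igf2r was higher in K-LM by 0.80 ± 0.20 over KPT (adjusted p = 0.00678) and by 1.01 ± 0.24 over T-LM (adjusted p = 0.00512). With the index as a covariate these differences of Igf2r were 0.87 and 0.91 (adjusted p = 6.88e-05 and 0.000299), and Igf1r, at 0.85 ± 0.29 over KPT without it (adjusted p = 0.0397), was then called (0.96, 0.000162). The Igf2r call against KPT was lost without any of the 3 K-LM P6 samples (0.74 to 0.88, adjusted p = 0.0125 to 0.0365) and without KPT P6 replicate 1 (0.67, 0.0261), replicate 2 (0.83, 0.0109) or replicate 4 (0.82, 0.0159). The call against T-LM was lost without K-LM P6 replicate 1 (0.95, 0.0239) or 2 (1.00, 0.0175) and without T-LM P6 replicate 1 (0.91, 0.0148) or 4 (0.91, 0.014).

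**Figure D5:**
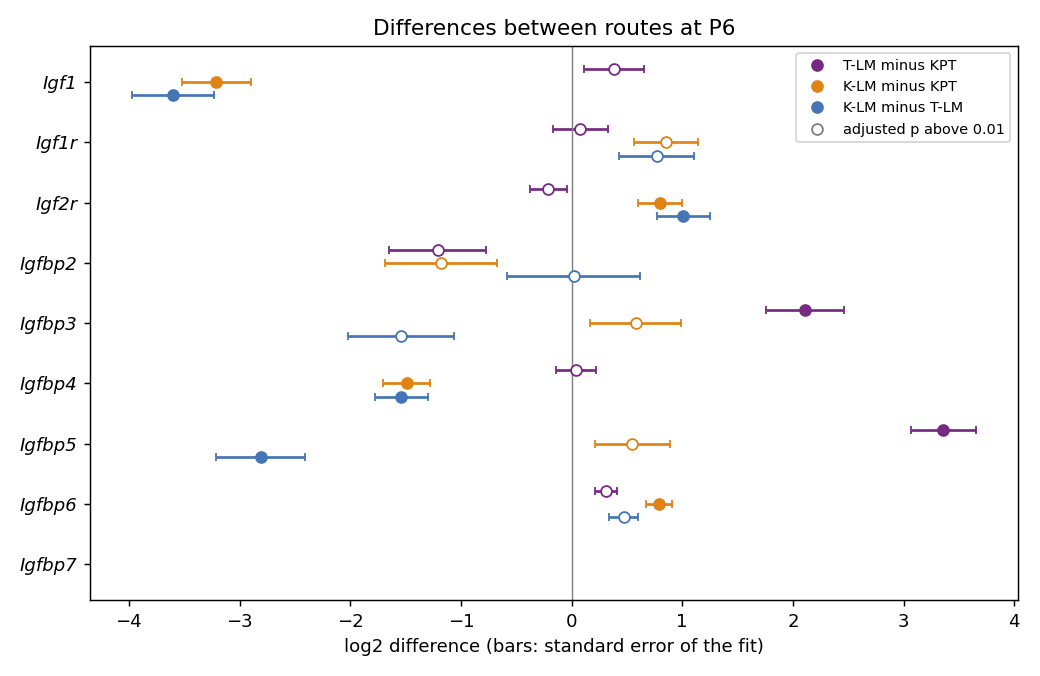
Fitted log2 difference between routes at P6 for the members tested, with bars of 1 standard error and filled points at an adjusted p of 0.01 or less. The Igf1 difference was -3.21 for K-LM minus KPT and -3.60 for K-LM minus T-LM, and the Igfbp5 difference was 3.36 for T-LM minus KPT. Igfbp3 and Igfbp5 passed the background filter only through T-LM P6 arrays.

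At P5 the routes differed in Igfbp6 alone by the same test. It lay between 1.43 and 1.75 over 5 KPT samples, 2.24 and 2.55 over 6 T-LM samples and 2.09 and 2.51 over 4 K-LM samples. The difference was 0.78 ± 0.11 for T-LM over KPT (adjusted p = 0.000744, 1 of 6 members tested called against 5.31% of 19727 probes) and 0.69 ± 0.12 for K-LM over KPT (adjusted p = 0.00191, 1 of 6 against 7.37%). Every lung sample lay above every KPT sample at P5. Between K-LM and T-LM, 0 of 6 were called, against 3.41% of probes, with 2 at an unadjusted p under 0.05 (limma). The Igf1 difference at P5 was -2.42 ± 0.82 for T-LM minus KPT and was not called (adjusted p = 0.0622), and KPT P5 replicates 1 and 2 (-2.64 and -2.14) and T-LM P5 replicate 1 (-2.83) stood above the rest of P5. The stromal sums of these 3 samples, which were picked by their Igf1 level, were 4.74, 2.80 and 5.44. The remaining P5 samples had -1.20 to 1.92. Igf1 read -4.07 and -2.91 at P0, where no stromal marker was above background. Over the 65 RNA samples its r with the stromal sum was 0.26. The part of stromal cells in the Igf1 levels was not tested. In 1 fit of all samples the Igf1 difference was called (-2.42, adjusted p = 0.00126). With each P5 sample left out of the P5 fit in turn, the Igf1 difference was called only without T-LM P5 replicate 1 (-3.14, adjusted p = 0.00261). None of the other 5 T-LM P5 samples was above background.

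Genes that act around the members were read from lists. The lists were chosen with earlier results of these data known, so counts of calls in them are a description. Of 9 genes of the growth hormone receptor arm, through which growth hormone drives Igf1 transcription in liver, 8 were tested between P0 and P6. The calls were 1 higher for KPT, 5 higher and 1 lower for T-LM, and 4 higher for K-LM, beside 3.80%, 7.24% and 4.82% of all probes tested called in either direction. Ghr, the growth hormone receptor, rose in all 3 routes. Its change was 2.18 ± 0.47 for KPT (adjusted p = 0.00729), 2.79 ± 0.32 for T-LM (4.38e-06) and 3.05 ± 0.39 for K-LM (1e-05). Socs3, an inhibitor of cytokine receptor signalling, rose in both lung routes, with 3.62 ± 0.50 for T-LM (adjusted p = 4.4e-05) and 3.33 ± 0.38 for K-LM (2.27e-06). Cish, another of these inhibitors, rose there too, with 3.45 ± 0.66 for T-LM and 2.85 ± 0.56 for K-LM (adjusted p = 0.00132 and 0.00163), or 4.94-fold and 2.53-fold at the least. Socs1 was not above background at P0 (mean -8.51). Its change was 1.51 ± 0.36 for T-LM (adjusted p = 0.00836) and 1.87 ± 0.44 for K-LM (0.00749), both called but with bounds of only 1.08-fold and 1.04-fold, and 1.59 ± 0.42 for KPT, not called (adjusted p = 0.0301). Socs2 rose in T-LM by 1.87 ± 0.41 (adjusted p = 0.00418). The gene that fell in T-LM was Stat5b, a transcription factor of this arm (-1.43 ± 0.25, adjusted p = 0.000656), which is named here because of its count and was chosen after its values were seen. In K-LM, Ghr and Igf1 moved in opposite directions.

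Of 12 IGF carriers and proteases outside the members, 7, 8 and 7 were tested in KPT, T-LM and K-LM and 1 rose in each, where 3.80%, 7.24% and 4.82% of all probes tested were called. A single call in so short a list says nothing about the list. Pappa2, a protease that cuts IGF binding proteins, rose by 1.97 ± 0.22 in KPT and 2.17 ± 0.27 in T-LM (adjusted p = 1.69e-05 and 1.13e-05) and stood at 0.65 ± 0.37 in K-LM (adjusted p = 0.361). Adamts1, a matrix protease, rose by 1.70 ± 0.29 in K-LM (adjusted p = 0.000374). Downstream of the receptors, 22, 24 and 24 of 30 insulin and IGF1 receptor signalling genes were tested. The counts called by limma were 0, 1 and 0, and 4, 7 and 1 had an unadjusted p under 0.05. The T-LM call was Irs2, an adaptor of the insulin and IGF1 receptors, which rose by 3.18 ± 0.66 (adjusted p = 0.0027, at least 3.59-fold). The median change of the insulin and IGF1 receptor list was -0.24, -0.12 and -0.13, beside -0.02, 0.01 and 0.02 over all probes tested. Among 16 imprinted genes and IGF2 mRNA binding proteins, 6, 7 and 6 were tested and 0 were called in any route, with 0, 3 and 2 at an unadjusted p under 0.05 (limma).

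Over the 65 RNA samples, the genes whose level was most like that of Igfbp4 among 11269 genes above background on at least 20 arrays were Esrp1 (Pearson r = 0.88), Ifitm6 (0.86) and Car6 (0.85). For Igfbp5, among 11270 genes, they were Cyp7b1 (0.84), Rbp4 (0.79) and Fzd1 (0.79), and for Igf1 Ogn (0.82), Mgll (0.80) and Meis1 (0.70). For Igfbp6 the closest were Dusp1 (0.66), Mcub (0.65) and Slc25a48 (0.65). The points share arrays, groups and passages, so these values are a description.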

How the data were processed

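Gene expression was measured on 70 single-colour Agilent arrays of 65 RNA samples. The authors scanned them and deposited intensity values per spot from Agilent Feature Extraction (version 11.0.1.1 for 62 arrays and 12.0.2.2 for the 8 arrays of the late slide), and also deposited a table of log2 values, which equalled quantile-normalised log2 median signals within 0.105. Here the log2 processed signal minus each array's 75th percentile over the 12209 probes above background on all arrays was used. Control spots and outlier-flagged values (0.366%) were left out. Of 55681 probes, 28039 matched a gene symbol, through RefSeq accessions where needed. Samples were grouped by route and passage from the labels. Repeat arrays of an RNA counted as 1 replicate.

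Comparisons used limma 3.58.1 with statmod 1.5.0 in R 4.3.3, over probes that passed background on 2 or more of the arrays fitted, with Benjamini-Hochberg adjustment over all of them and a threshold of 0.01. The KPT and T-LM fits held the first arrays of P0 and of the route's P2 to P6, with P1 added for comparisons with P1 and over passages, so a fitted change can differ from that of the printed levels, which average repeat arrays. The K-LM fit (P0, K-LM and the repeated KPT P6 RNAs) and the P6 fit took repeat arrays too, with a term for that slide and arrays of 1 RNA treated as a random block (correlation 0.688 and 0.383). The P5 fit held all P5 arrays. Scripts were tested on simulated data. "At least" folds set the brighter group's mean against the lowest signal above background on the dim group's arrays. Alternatives changed the scaling, background, filter, floor, samples, slide term and replicate block. Named list genes were those called in a P0 to P6 comparison, at most the 5 with the largest change per list. The members and lists were chosen with earlier results of these data known. The number of arrays limits the precision, since array intensities give no counts.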

Additional observations from a re-analysis of the deposited data

Results flagged for a closer look

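Of 90 groups of a member's levels with 4 to 10 samples, 9 held a sample far from the others by Dixon's criterion, which chance meets in about 1 of 20 groups. Igf1 read -2.83 in T-LM P5 replicate 1, against -7.72 to -6.42 in the other 5 samples, and -3.58 in T-LM P1 replicate 1, against -6.04 to -5.55. Igf1r read -3.49 in T-LM P5 replicate 4 (others -4.39 to -4.08), -3.38 in KPT P1 replicate 3 (others -2.73 to -2.46) and -5.50 in K-LM P5 replicate 3 (others -4.69 to -4.59). Igfbp2 read -3.80 in K-LM P3 replicate 3 (others -8.69 to -8.08), and Igfbp3 read -6.25 in T-LM P4 replicate 2 (others -8.51 to -8.22). Igfbp6 read 1.13 in KPT P6 replicate 5 (others 1.37 to 1.43), and Igfbp7 read -8.87 in T-LM P1 replicate 1 (others -7.45 to -7.10).

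At P6, 6 members differed between routes by the test of the difference itself. T-LM minus KPT gave 2.11 for Igfbp3 and 3.36 for Igfbp5, both of which passed the background filter only through T-LM P6 arrays. K-LM minus KPT gave -3.21 for Igf1, 0.80 for Igf2r, -1.49 for Igfbp4 and 0.79 for Igfbp6. K-LM minus T-LM gave -3.60 for Igf1, 1.01 for Igf2r, -1.54 for Igfbp4 and -2.81 for Igfbp5. At P5, Igfbp6 differed by 0.78 for T-LM minus KPT and 0.69 for K-LM minus KPT.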

How the results depend on the processing

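For the 24 called differences of a member, 455 of 456 alternative values kept their direction, the Igfbp3 difference at P6 under the floor was 0.00, and 378 also kept the call. Most of the dim members have only a bound in at least 1 group, and P0 has 2 samples. The cause of each change below was not tested unless the alternative tests fewer genes or samples by construction.

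The number of members called changed by over 1.5 times as follows. Counts over all probes changed with the settings too, so a member count alone shows nothing particular to the members. With a filter on all arrays, which tests fewer probes, it was 0 in KPT and T-LM and 1 in K-LM between P0 and P6, 1, 0 and 1 between P3 and P6, 1 in KPT and 1 in T-LM between P1 and P6, 2 over passages in either lung route, and 0, 2 and 1 at P6 (T-LM minus KPT, K-LM minus KPT, K-LM minus T-LM). With the floor it was 0 in KPT and T-LM between P0 and P6, 0 in T-LM between P3 and P6, 1 in KPT between P1 and P6, and 0, 2 and 1 at P6. In that order 356, 822, 578, 1790, 1371, 2178 and 1735 of all probes were called. The main fits of the same probes called 797, 1549, 1508, 2577, 2490, 3386 and 2589. In 1 fit of all samples it was 1 in T-LM between P0 and P6, 1 in KPT between P3 and P6, 1, 2 and 1 at P6, and 2 for T-LM minus KPT at P5 (Igfbp6 and Igf1). In that order 1499, 77, 672, 948, 797 and 1516 of 26328 probes were called. The main fits, which tested fewer probes, called 1549, 165, 2490, 3386, 2589 and 1048. With the index as covariate it was 0 in K-LM between P3 and P6, 0 in KPT and 1 in T-LM between P1 and P6, 1 over passages in KPT, and 2 and 0 for T-LM and K-LM minus KPT at P5. In that order 117, 1443, 1319, 1874, 1098 and 347 of all probes were called. The main fits of the same probes called 787, 2577, 2132, 5380, 1048 and 1453. With no filter it was 1 in K-LM between P3 and P6, 0 in KPT between P1 and P6, and 0 for T-LM and for K-LM minus KPT at P5. In that order 287, 1732, 368 and 724 of 55681 probes were called, beside 787, 2577, 1048 and 1453 in the main fits. With arrays of the compared groups alone it was 2 in KPT between P0 and P6 (Igfbp4 and Igf1) and 1 between P3 and P6 (Igf1). There 1355 of 19122 and 833 of 19158 probes were called. Scaling over all probes gave 1 in K-LM between P0 and P6 and 1 in KPT between P1 and P6, first arrays alone gave 1 in K-LM between P0 and P6, the deposited log2 values gave 2 in T-LM between P3 and P6, and the slide as a random block gave 1 in KPT between P0 and P1. Scaling over all probes moved the median change of all probes between P0 and P6 from -0.02 to -0.14 in KPT and from 0.01 to -0.22 in T-LM, and that between P0 and P1 from 0.10 to -0.18 in KPT and from 0.16 to -0.27 in T-LM (log2).

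Of 9 comparisons with 3 or more pairs by replicate number, 0 had every correlation over 0.1. A single low pair fails this rule, so it cannot show whether the replicate numbers pair the samples. The correlations ran from 0 to 0.77 for T-LM minus KPT at P5 and from -0.24 to -0.13 for K-LM minus T-LM at P6. With the replicate number as a block, the count was 1 in T-LM and 1 in K-LM between P0 and P6, 0 in K-LM between P3 and P6, 1 in T-LM between P1 and P6, and 0 for K-LM minus KPT at P5. In that order 1453, 737, 281, 1497 and 879 of all probes were called, beside 1549, 1075, 787, 2132 and 1453 in the main fits.

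Leaving out 1 replicate gave, between P0 and P6, 1 to 1 members in KPT, 1 to 2 in T-LM and 1 to 2 in K-LM, and between P3 and P6 0 to 1, 1 to 2 and 1 to 2. It gave 0 to 1 in KPT and 0 to 0 in T-LM between P0 and P1, and 0 to 3 in KPT and 1 to 2 in T-LM between P1 and P6. Over passages it gave 3 to 4 in KPT, 5 to 6 in T-LM and 5 to 7 in K-LM. With all samples kept these counts were 3 of 7, 5 of 8 and 6 of 8 tested, against 24.4%, 27.8% and 19.2% of all probes. At P6 it gave 2 to 3, 3 to 4 and 3 to 4, and at P5 1 to 2, 1 to 1 and 0 to 0 (T-LM minus KPT, K-LM minus KPT, K-LM minus T-LM). In T-LM between P3 and P6 the count rose to 2 without T-LM P3 replicate 3 or T-LM P6 replicate 4, and at P5 T-LM minus KPT rose to 2 without T-LM P5 replicate 1.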
